A study of Homo sapiens with 12 samples.

Results

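Proteoglycan core proteins and the enzymes that build and modify glycosaminoglycan chains were followed in A549, an established line of human lung adenocarcinoma cells that is used as a model of alveolar epithelium. The set holds 58 genes and was chosen by gene symbol: syndecans, glypicans, 5 other core proteins, and the transferases, epimerases, sulfotransferases and synthases of heparan, chondroitin, dermatan and keratan sulfate and of hyaluronan. A gene could enter where it has a row in a deposited table, so membership was also selected on counts, because those tables keep genes above 0.1 CPM (counts scaled by library size) in at least 4 libraries. All 58 lie in both tables, which hold 24459 and 24745 genes and share 23771. The members closest to that limit were NDST3, EXTL1 and CHST5, whose 4th-highest libraries stood at 0.113, 0.156 and 0.204 CPM in the table with control cells. A further 14 genes of these families, among them GPC3, BGN, SULF1 and NDST4, have no row and are not analysed here. B3GAT2 and CHST10 are known for the HNK-1 carbohydrate epitope rather than for glycosaminoglycans, and are kept because their symbols match.

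In a proteoglycan, glycosaminoglycan chains are attached to serines of a core protein through a short linker sugar that begins with xylose. The next sugar decides between chondroitin and heparan chains, polymerases extend the chain, and epimerases and sulfotransferases then set the pattern of sulfate groups that growth factors and matrix proteins bind. Hyaluronan is made without a core protein at the cell surface, and in the lung these polymers hydrate the matrix and hold signalling proteins near epithelium and fibroblasts.

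The cells received 10 ng/mL TGF-β1 together with 40 mM sodium acetate, TGF-β1 alone, or neither (control), for 2 days, with 4 libraries a group. RNA depleted of ribosomal RNA was sequenced, and the values are counts of reads per gene. The totals were 34698057 to 41575904 in TGF-β1 + acetate libraries, 37202599 to 53936023 in TGF-β1 libraries and 38400896 to 53055990 in control libraries, so 3 counts are worth 0.0565 to 0.0858 CPM. Whether the libraries came from separate cultures is not stated in the labels, so p-values measure the spread between libraries, which may be technical. Columns were placed in groups from the names of the tables, as no label states it, and libraries carry their column codes. The keratin and EPCAM list that marks epithelial cells had all 5 genes in the tables and summed to 6619 to 7626 CPM in TGF-β1 + acetate libraries, 5568 to 6177 CPM in TGF-β1 libraries and 5971 to 6231 CPM in control libraries. KRT8, KRT18 and KRT7 made up most of it, with means of 2522, 2238 and 2251 CPM, 1838, 1457 and 1955 CPM, and 2680.3, 2268 and 1809 CPM in those groups. EPCAM averaged 5.62 ± 0.344, 1.08 ± 0.223 and 4.22 ± 0.325 CPM, and KRT19 58.4 ± 9.07, 7.01 ± 0.656 and 36.7 ± 3.22 CPM. Both were far lower with TGF-β1 alone, while KRT7 was higher with TGF-β1 than in control. The alveolar type II markers SFTPC, SFTPA1 and NKX2-1 have no row, and SFTPB with LAMP3 summed to at most 1.25 CPM in any library. None of 4 endothelial markers has a row. Of 4 leukocyte markers CD68 and CD14 have one, and summed to 23.9 to 25.3 CPM in TGF-β1 + acetate, 13.3 to 16.6 CPM in TGF-β1 and 11.9 to 14.7 CPM in control libraries. CD68 made up most of that sum, while CD14 averaged 2.1 ± 0.183, 0.259 ± 0.0427 and 2.27 ± 0.21 CPM in those groups, lowest with TGF-β1 alone; the part of such cells in the results was not tested.

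TGF-β1 raised most of the set. Among members that reached 1 CPM in a group, the largest rises were in the heparan 3-O-sulfotransferases HS3ST3A1 (18.3-fold) and HS3ST3B1 (9.98-fold), the xylosyltransferase XYLT1 (14.1-fold), the keratan sulfate core LUM (10.7-fold) and the keratan sulfotransferase CHST1 (7.79-fold). The largest falls were in CSGALNACT1, which starts chondroitin chains (7.55-fold lower), and HS3ST6, another heparan 3-O-sulfotransferase (7.31-fold lower). Of 55 members tested, 38 rose, 12 fell and 5 did not pass an adjusted p of 0.05 by edgeR's quasi-likelihood test. Among all 22051 genes tested, 34.1% rose and 32.8% fell. At least 2-fold rises were called in 23 members and at least 2-fold falls in 3, against 8.92% and 8.68% of all genes tested. The median log2 fold change was 0.87 over the members tested and 0.02 over all genes. TGF-β1 and control libraries were fully apart in 37 members with higher and 11 with lower TGF-β1 values, against 31.1% and 30.4% of all genes tested. Bulk counts cannot tell a change of RNA per cell from a change in the number of cells that express a gene.

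Acetate added to TGF-β1 moved members in both directions, and the 3 largest changes were in sulfotransferases. HS3ST6 (17.8-fold), the keratan sulfate sulfotransferases CHST6 (5.49-fold) and CHST1 (4.90-fold), LUM (3.54-fold) and the dermatan epimerase DSEL (2.94-fold) were higher with acetate than with TGF-β1 alone. HS3ST3B1 (2.73-fold) and XYLT1 (2.59-fold) were lower with acetate, and were the only members called at least 2-fold lower. Of 57 members tested, 27 were higher, 17 were lower and 13 did not pass, where 33.3% of all 22336 genes tested were higher and 30.4% lower. At least 2-fold differences were called in 9 members higher and 2 members lower, against 10.8% and 2.07% of all genes. The counts in this comparison lie nearer to those background shares than the counts for TGF-β1 alone do. The median log2 fold change was 0.18 over the members and 0.03 over all genes, and the libraries did not overlap in 24 members with higher and 18 with lower values, against 30.0% and 27.4% of all genes. Scaling by library totals in place of TMM factors moved the median of all genes to 0.16 in this comparison and to -0.09 in that of TGF-β1 with control, and then called 32 members higher and 14 lower with acetate. Higher calls made up 52.3% of all calls with TMM factors and 67.1% with library totals.

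Set against untreated control cells, the TGF-β1 + acetate cells had 43 members higher and 10 lower of 57 tested, where 36.1% and 34.4% of all 22742 genes tested were called. The median log2 fold change was 0.92 over the members and 0.02 over all genes. The same libraries serve in more than 1 of these 3 comparisons, so their values stand side by side and were not correlated. EXTL1 and CHST5 were too low to test between TGF-β1 and control, and NDST3 in any comparison. The counts given below by role rest on few genes, and no role was tested as a class.

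**Figure D1:**
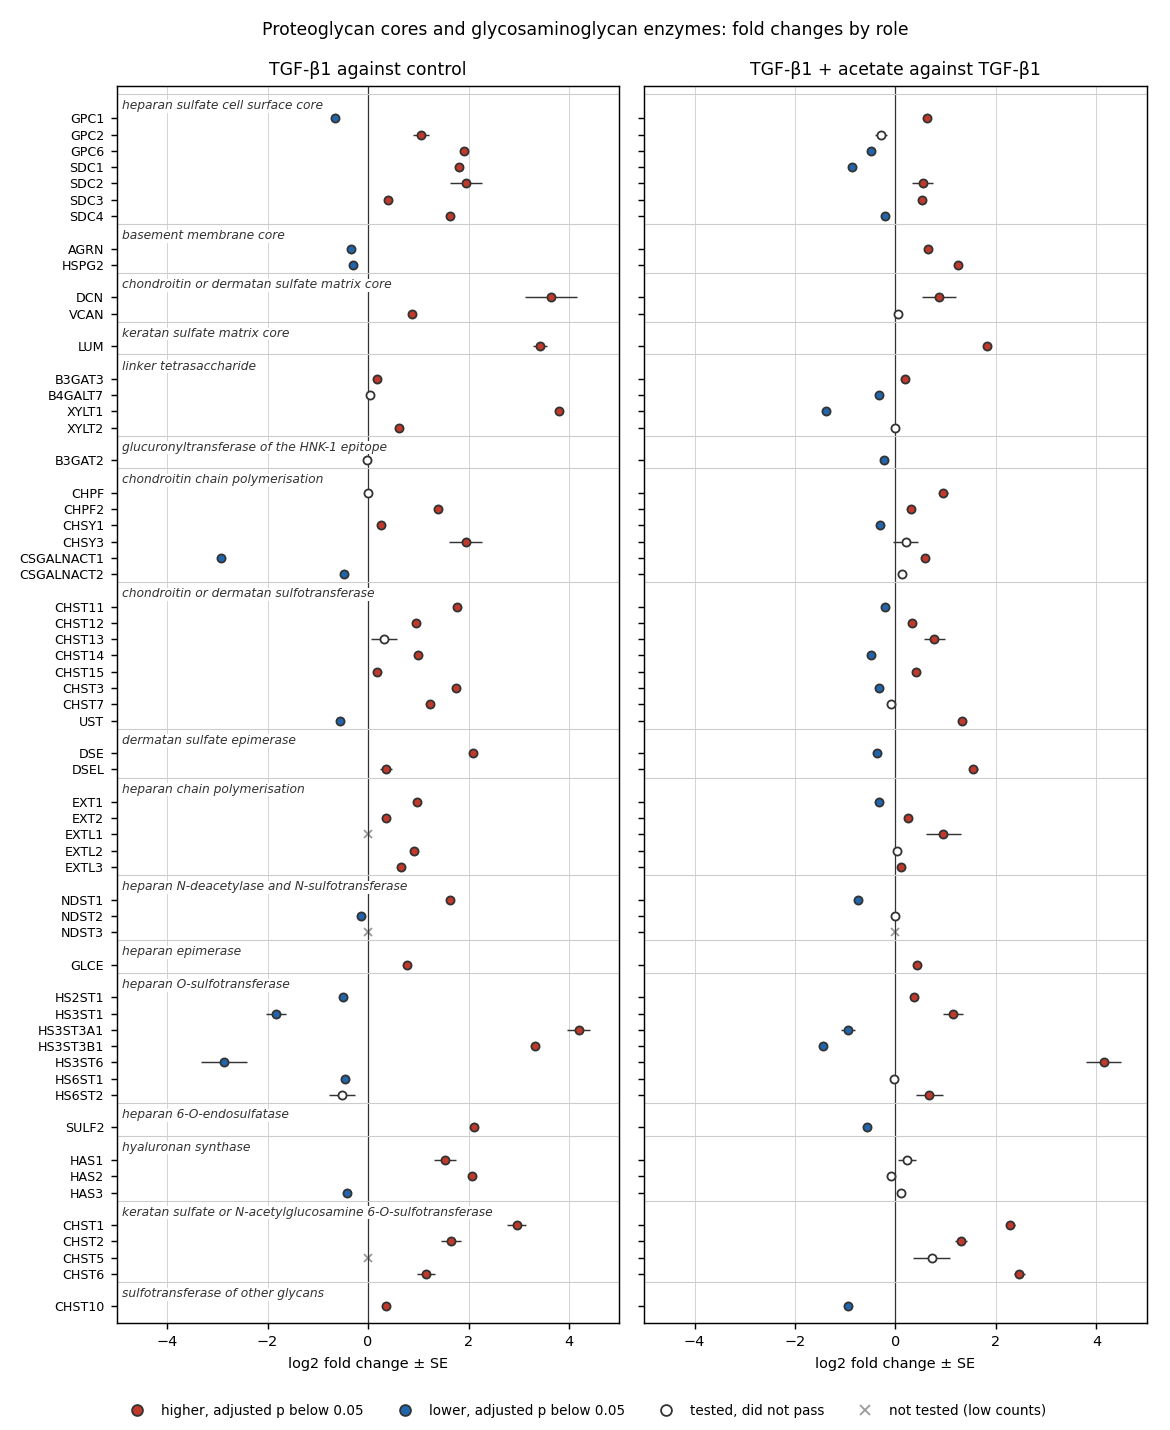
Log2 fold changes of the 58 members with their standard errors, ordered by role, for TGF-β1 against control on the left and TGF-β1 + acetate against TGF-β1 on the right. Filled points passed an adjusted p of 0.05, open points did not, and crosses were not tested. On the left 38 members lie to the right of 0 and 12 to the left with a call; on the right 27 and 17 do, with HS3ST6, CHST6 and CHST1 farthest to the right.

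Promoter sequence is shown for 6 members that carry these patterns: XYLT1, HS3ST3A1, HS3ST3B1 and NDST1, which TGF-β1 raised and acetate lowered relative to TGF-β1, and HS3ST6 and CHST6, which were highest with acetate. Each is the 300 bases from 250 before to 50 after a start of the gene in RefSeq on GRCh38.p14, read 5′ to 3′ on the gene's strand: chr16:17470911-17471210 minus for XYLT1, chr17:13601880-13602179 minus for HS3ST3A1, chr17:14300831-14301130 plus for HS3ST3B1, chr5:150497529-150497828 plus for NDST1, chr16:1918366-1918665 minus for HS3ST6 and chr16:75495392-75495691 minus for CHST6. Capitals mark every match to CAGAC on either strand (GTCTG when read on the other), the letters that SMAD proteins of the TGF-β pathway bind, and to TGANTCA, the palindrome that AP-1 factors bind.
XYLT1: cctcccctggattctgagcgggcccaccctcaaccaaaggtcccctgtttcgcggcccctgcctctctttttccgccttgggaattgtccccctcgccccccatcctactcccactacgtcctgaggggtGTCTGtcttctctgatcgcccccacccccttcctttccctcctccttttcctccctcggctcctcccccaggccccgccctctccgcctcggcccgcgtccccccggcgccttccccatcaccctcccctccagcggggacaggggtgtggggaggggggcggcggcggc
HS3ST3A1: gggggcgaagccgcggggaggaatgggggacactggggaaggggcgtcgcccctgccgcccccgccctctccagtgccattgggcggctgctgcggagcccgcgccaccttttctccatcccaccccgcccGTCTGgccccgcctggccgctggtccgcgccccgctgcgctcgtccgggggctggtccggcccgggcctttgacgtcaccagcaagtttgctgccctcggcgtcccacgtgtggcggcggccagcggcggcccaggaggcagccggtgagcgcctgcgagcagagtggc
HS3ST3B1: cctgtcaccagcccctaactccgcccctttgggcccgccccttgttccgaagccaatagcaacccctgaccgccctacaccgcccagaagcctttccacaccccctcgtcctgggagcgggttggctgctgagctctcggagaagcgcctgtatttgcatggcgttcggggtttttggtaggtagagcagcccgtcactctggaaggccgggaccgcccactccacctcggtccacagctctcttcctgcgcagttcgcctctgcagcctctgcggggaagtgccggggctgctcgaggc
NDST1: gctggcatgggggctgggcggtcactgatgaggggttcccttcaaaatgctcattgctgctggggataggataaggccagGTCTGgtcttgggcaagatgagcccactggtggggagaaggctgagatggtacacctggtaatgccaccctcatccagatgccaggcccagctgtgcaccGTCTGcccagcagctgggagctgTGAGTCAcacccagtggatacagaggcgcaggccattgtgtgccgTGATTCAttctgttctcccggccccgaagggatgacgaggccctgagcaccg
HS3ST6: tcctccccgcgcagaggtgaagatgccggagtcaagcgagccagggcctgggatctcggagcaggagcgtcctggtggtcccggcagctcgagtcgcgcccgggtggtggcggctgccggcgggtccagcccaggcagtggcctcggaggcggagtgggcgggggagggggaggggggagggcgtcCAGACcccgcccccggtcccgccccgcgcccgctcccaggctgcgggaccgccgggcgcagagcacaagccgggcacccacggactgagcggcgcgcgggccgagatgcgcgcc
CHST6: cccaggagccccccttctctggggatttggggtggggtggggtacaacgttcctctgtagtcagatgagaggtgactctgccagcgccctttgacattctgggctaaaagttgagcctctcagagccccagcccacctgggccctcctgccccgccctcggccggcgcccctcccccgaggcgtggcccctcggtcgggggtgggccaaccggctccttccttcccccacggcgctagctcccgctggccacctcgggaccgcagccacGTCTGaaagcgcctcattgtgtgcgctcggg
The NDST1 window belongs to an internal start, 11961 bases downstream of the gene's start in the deposited tables, while the other 5 starts lie within 79 bases of theirs. NDST1 held 2 matches to each motif, HS3ST3B1 none of either, and the other 4 held 1 match to CAGAC each. RefSeq matched 48 of the 58 members by symbol, with 62 promoter entries, as some genes have several starts. CAGAC lay in 25 of those 62 entries (40.3%) and in 45.3% of all 35116 entries, and TGANTCA in 3 of 62 (4.84%) and in 7.71% of all entries. The GC content was 60.7% in NDST1, the lowest of the 6, and 78.0% in HS3ST6, the highest. A match describes letters in this window and is no evidence that a factor binds there.

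Among the heparan sulfate cores of the cell surface, TGF-β1 raised 6 of 7 and lowered GPC1, where 34.1% of all genes rose and 32.8% fell. Of these cores, SDC1 had the highest level per kilobase of exon in every group. Here and below, that length joins all annotated exons of a gene. Levels per kilobase compared between genes therefore depend on which transcripts are made, which was not measured. SDC1, the main syndecan of epithelia, had 256, 237, 262 and 259 CPM in TGF-β1 + acetate libraries, 429, 485, 457 and 490.5 CPM in TGF-β1 libraries and 138, 129, 129.9 and 141 CPM in control libraries. All 3 groups were apart, with TGF-β1 highest, at a log2 fold change of 1.80 ± 0.05 against control (adjusted p = 2.9e-15) and -0.86 ± 0.04 for acetate against TGF-β1 (adjusted p = 1.1e-10). Here and below, ± after a log2 fold change is its standard error. GPC6, a glypican held to the membrane by a lipid anchor, followed the same order with means of 127 ± 2.94 CPM in TGF-β1 + acetate, 179.5 ± 3.73 CPM in TGF-β1 and 48.4 ± 2.17 CPM in control libraries (SD, n = 4 each). SDC4, the syndecan of focal adhesions, rose by a log2 fold change of 1.64 ± 0.04 with TGF-β1 and was lower by -0.20 ± 0.04 with acetate, a difference that scaling by library totals left uncalled (-0.07, adjusted p = 0.10; range over the alternatives 1.8e-07 to 0.10). GPC1 went the other way, with 79.7 ± 6.77 CPM in TGF-β1 + acetate, 51.8 ± 3.43 CPM in TGF-β1 and 81.4 ± 2.29 CPM in control libraries. Acetate and control libraries overlapped for GPC1, and their difference did not pass (adjusted p = 0.65).

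SDC2 and GPC2 were minor cores in these cells. SDC2 had 1.06 ± 0.113, 0.728 ± 0.18 and 0.184 ± 0.0836 CPM in TGF-β1 + acetate, TGF-β1 and control libraries (SD, n = 4 each), and its rise with TGF-β1 was 3.85-fold (adjusted p = 4.1e-05), over control counts of 13, 6, 4 and 13. With acetate, SDC2 libraries overlapped those of TGF-β1, and the call at adjusted p = 0.032 was lost under 7 alternatives, among them leaving out S15, S18, S22, S23 or S24, with adjusted p from 0.0097 to 0.11. GPC2 rose 2.08-fold with TGF-β1 (adjusted p = 1.5e-05), and its log2 difference with acetate, -0.29 ± 0.12, did not pass (adjusted p = 0.052). That difference did pass without S18 or S25 and with DESeq2 size factors in edgeR (lowest adjusted p 0.034), and the 2 groups did not overlap. SDC3 was higher in each step, by 0.40 ± 0.06 with TGF-β1 and 0.52 ± 0.07 with acetate on the log2 scale.

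The 2 basement membrane cores fell with TGF-β1 and were higher with acetate, where 32.8% of all genes fell and 33.3% were higher. HSPG2, or perlecan, had 315, 264, 244 and 279 CPM in TGF-β1 + acetate libraries, 121, 123, 109 and 118 CPM in TGF-β1 libraries and 145, 165, 138 and 139.9 CPM in control libraries. The acetate libraries were all above the others and the TGF-β1 libraries all below control, at log2 fold changes of 1.24 ± 0.06 for acetate (adjusted p = 1.7e-10) and -0.31 ± 0.05 for TGF-β1 (adjusted p = 8.3e-05). Exons of LDLRAD2 on the opposite strand overlap 11.7% of the HSPG2 exonic length, and the strand setting of the counting is not given in the sources used here. AGRN, or agrin, averaged 297 ± 24.6 CPM in TGF-β1 + acetate, 191 ± 12.7 CPM in TGF-β1 and 244 ± 2.18 CPM in control libraries, again without overlap between groups.

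The matrix cores VCAN, LUM and DCN rose with TGF-β1, where 34.1% of all genes did. VCAN, or versican, a large chondroitin sulfate proteoglycan that binds hyaluronan, averaged 1506 ± 48.9 CPM in TGF-β1 + acetate, 1458 ± 92.5 CPM in TGF-β1 and 802 ± 111 CPM in control libraries. Its rise with TGF-β1 was 1.83-fold (adjusted p = 2.1e-08), while the acetate libraries overlapped those of TGF-β1 and their difference of 0.06 ± 0.04 did not pass (adjusted p = 0.25), although it did with library totals (0.19, adjusted p = 0.0019). Per kilobase of exon, VCAN held 102 CPM in TGF-β1 + acetate, 98.3 CPM in TGF-β1 and 54 CPM in control cells. SDC1 was the core nearest to it, at 70.5, 129 and 37.4 CPM per kilobase in those groups. By this length SDC1 had the highest level of the 12 cores in TGF-β1 cells and VCAN in the other groups. The joined exons span 14831 bases in VCAN and 3595 in SDC1, and with a shorter VCAN transcript the order in TGF-β1 cells could differ.

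LUM, or lumican, a small leucine-rich core that carries keratan sulfate, rose in each step. It had 13.8, 14.4, 16.7 and 16.4 CPM in TGF-β1 + acetate libraries, 4.43, 4.2, 4.01 and 4.82 CPM in TGF-β1 libraries and 0.348, 0.469, 0.434 and 0.377 CPM in control libraries. The groups did not overlap, with log2 fold changes of 3.42 ± 0.14 for TGF-β1 (adjusted p = 2e-12) and 1.82 ± 0.08 for acetate (adjusted p = 4.4e-11). DCN, or decorin, its dermatan sulfate neighbour on chromosome 12, was far lower, with 34, 20, 33 and 17 counts in TGF-β1 + acetate libraries, 12, 9, 14 and 25 in TGF-β1 libraries and 1, 2, 1 and 1 in control libraries. Over the summed counts, DCN was 13.6-fold higher in TGF-β1 than in control cells, with an exact 95% counting interval of 5.52 to 43.4. DCN passed the limits on counts there only through its TGF-β1 libraries, so a high ratio was a condition of its being tested. Its rise with acetate, 0.87 ± 0.34 on the log2 scale, had overlapping groups and was lost without S15, S16, S17, S22 or S24 (adjusted p = 0.035, range 0.0074 to 0.13). Both genes are also expressed by fibroblasts. All 5 genes of a fibroblast marker list had rows and none was absent, and their summed level was 46.8 to 51.7 CPM in TGF-β1 + acetate, 11.6 to 14.2 CPM in TGF-β1 and 4.86 to 5.33 CPM in control libraries. THY1 made up most of it, at 44.4 ± 2.65, 7.91 ± 0.77 and 4.35 ± 0.315 CPM in those groups, and PDGFRA was also highest with acetate, at 2.89 ± 0.0633, 1.42 ± 0.273 and 0.253 ± 0.0379 CPM. The other 3 markers averaged less with acetate than with TGF-β1 alone: FAP had 0.642 ± 0.134, 1.23 ± 0.0931 and 0.0566 ± 0.0443 CPM, PDGFRB 0.644 ± 0.2, 1.41 ± 0.371 and 0.27 ± 0.089 CPM, and COL3A1 0.815 ± 0.104, 1.05 ± 0.2 and 0.205 ± 0.0735 CPM in the same groups. The part of other cells in the LUM and DCN results was not tested.

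**Figure D2:**
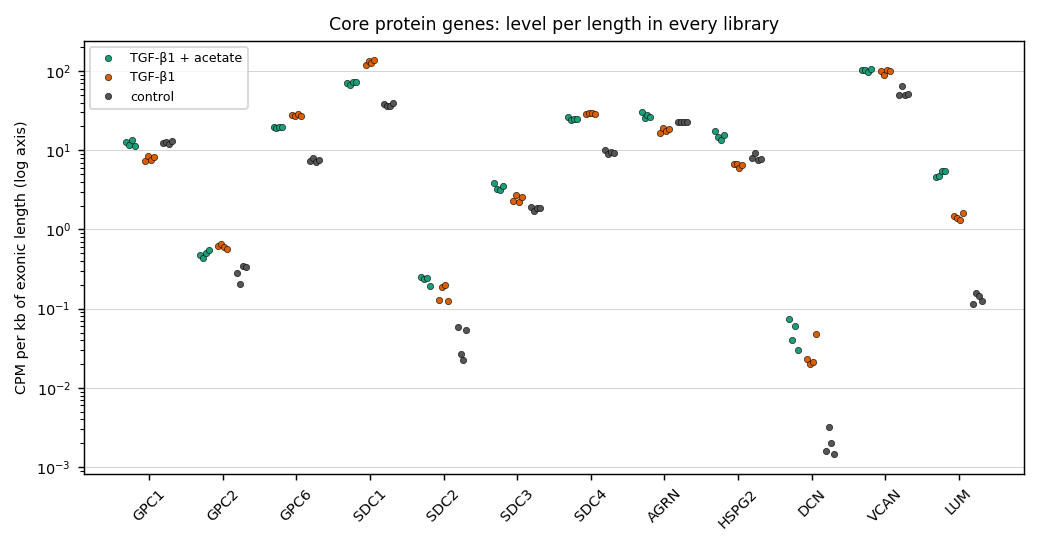
Level of the 12 core protein genes in every library, as CPM per kilobase of exonic length on a log axis, with the groups side by side for each gene (TGF-β1 + acetate, TGF-β1, control). Each point is 1 library. VCAN and SDC1 lie highest and DCN lowest, and LUM steps down from acetate to control without overlap.

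In the linker region TGF-β1 raised 3 of 4 enzymes, where 34.1% of all genes rose, and XYLT1 stood out by size. XYLT1, one of the 2 enzymes that place the first xylose on a core protein, lies at chromosome 16, 17101769 to 17470881, minus strand, in the hg38 coordinates of the files. It had 38.7, 35.0, 31.2 and 37.5 CPM in TGF-β1 + acetate libraries, 97.8, 93.5, 87.0 and 93.9 CPM in TGF-β1 libraries and 6.56, 6.75, 6.8 and 6.46 CPM in control libraries. The groups were far apart, with a log2 fold change of 3.81 ± 0.05 for TGF-β1 (adjusted p = 8.6e-19) and -1.38 ± 0.06 for acetate (adjusted p = 2e-11). The acetate libraries stayed 5.37-fold above control (adjusted p = 9.2e-17). XYLT2, which has the same activity, rose 1.53-fold with TGF-β1 (adjusted p = 1.1e-08), and its difference of -0.01 ± 0.04 with acetate did not pass, although library totals gave a call for a higher level (0.12, adjusted p = 0.011). Per kilobase, XYLT1 held 3.23 CPM in TGF-β1 + acetate, 8.46 CPM in TGF-β1 and 0.604 CPM in control cells, and XYLT2 8.74, 8.86 and 5.81 CPM, so the levels of the pair were close in TGF-β1 cells only.

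B4GALT7, which adds the first galactose, averaged 17.6 ± 1.18 CPM in TGF-β1 + acetate, 22.1 ± 0.832 CPM in TGF-β1 and 21.5 ± 1.43 CPM in control libraries. It fell with acetate (-0.32 ± 0.06, adjusted p = 0.00012), and its difference between TGF-β1 and control did not pass (adjusted p = 0.51). B3GAT3, which completes the linker with glucuronic acid, changed by 0.17 ± 0.06 with TGF-β1 and 0.18 ± 0.07 with acetate, calls lost under 7 and 5 alternatives, with adjusted p up to 0.29 and 0.19. Leaving out S1, S2, S3, S16, S17 or S18 ended the call with TGF-β1, and leaving out S15, S18 or S24 that with acetate.

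Of the 6 chondroitin polymerisation genes, TGF-β1 raised 3 and lowered 2, where 34.1% of all genes rose and 32.8% fell. CSGALNACT1, which commits the linker to chondroitin by adding the first N-acetylgalactosamine, had 23.9, 25, 26.7 and 22.6 CPM in TGF-β1 + acetate libraries, 16.5, 15.6, 17 and 17.3 CPM in TGF-β1 libraries and 128, 126, 125 and 125 CPM in control libraries. Control libraries were highest by a wide gap, and acetate libraries lay above those of TGF-β1 without overlap. Its log2 fold change was -2.92 ± 0.04 with TGF-β1 (adjusted p = 1.4e-18) and 0.58 ± 0.06 with acetate (adjusted p = 3.5e-07). Its paralogue CSGALNACT2 was also lower with TGF-β1, by -0.48 ± 0.06 (adjusted p = 8.6e-07), and its acetate difference of 0.13 ± 0.06 did not pass (adjusted p = 0.063). That difference did pass with library totals (0.26, adjusted p = 0.0013) and when genes were kept at 1 CPM in 4 libraries, and the acetate libraries lay above those of TGF-β1 without overlap.

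The chain-extending partners went in different directions. CHPF2, a polymerase subunit, rose 2.63-fold with TGF-β1 and was a further 1.23-fold higher with acetate. CHPF, its paralogue, averaged 33.7 ± 4.01 CPM in TGF-β1 + acetate, 17.5 ± 2.06 CPM in TGF-β1 and 17.7 ± 0.776 CPM in control libraries. TGF-β1 and control overlapped for CHPF (adjusted p = 0.97), and only acetate separated from both, by 0.95 ± 0.09 over TGF-β1 (adjusted p = 1e-07). CHSY1, a chondroitin synthase, rose by 0.25 ± 0.04 with TGF-β1 and was lower by -0.30 ± 0.04 with acetate. CHSY3 stayed below 1 CPM, with 0.604 ± 0.109 CPM in TGF-β1 + acetate, 0.524 ± 0.139 CPM in TGF-β1 and 0.140 ± 0.0503 CPM in control libraries, and rose 3.83-fold with TGF-β1 (adjusted p = 7.1e-05), over control counts of 4, 7, 8 and 7.

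Of 8 sulfotransferases of chondroitin and dermatan sulfate 6 rose with TGF-β1, where 34.1% of all genes did, and all 8 were higher in TGF-β1 + acetate cells than in control cells, where 36.1% of all genes were. CHST11, which places 4-O-sulfate on chondroitin, averaged 165 ± 9.83 CPM in TGF-β1 + acetate, 191 ± 7.14 CPM in TGF-β1 and 56.5 ± 2.39 CPM in control libraries. CHST3, which places 6-O-sulfate, averaged 185 ± 8.90, 232 ± 4.40 and 69.4 ± 1.27 CPM in those groups. TGF-β1 raised them 3.40-fold and 3.36-fold (adjusted p = 8.7e-16 and 8.7e-17). Acetate lowered CHST3 by -0.32 ± 0.04 on the log2 scale, and CHST11 by -0.20 ± 0.04, a call lost with library totals (-0.07, adjusted p = 0.19; range 1.3e-05 to 0.19). CHST7, the other 6-O enzyme, rose 2.37-fold with TGF-β1 and did not pass with acetate (-0.09 ± 0.06, adjusted p = 0.22), with 0.04 under library totals and a call without S24 (adjusted p = 0.018).

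CHST12, a 4-O enzyme, was higher in each step, by 0.96 ± 0.07 and 0.32 ± 0.06. CHST14, the dermatan-specific 4-O enzyme, rose by 0.99 ± 0.06 with TGF-β1 and was lower by -0.49 ± 0.08 with acetate. CHST15, which adds a second sulfate to N-acetylgalactosamine 4-sulfate, was higher by 0.41 ± 0.05 with acetate (adjusted p = 2e-06), and its small rise of 0.18 ± 0.05 with TGF-β1 was lost with library totals (adjusted p = 0.18). CHST13, a low 4-O enzyme, averaged 1.32 ± 0.258 CPM in TGF-β1 + acetate, 0.781 ± 0.197 CPM in TGF-β1 and 0.619 ± 0.233 CPM in control libraries and was higher with acetate only (adjusted p = 0.0047; 0.30 for TGF-β1 against control).

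UST, which puts 2-O-sulfate on the uronic acid of these chains, had 9.57, 10.3, 10.5 and 9.57 CPM in TGF-β1 + acetate libraries, 3.62, 4.2, 4.11 and 4.07 CPM in TGF-β1 libraries and 6.21, 5.75, 6.08 and 5.61 CPM in control libraries. Acetate libraries were highest and TGF-β1 libraries lowest, with no overlap. Its log2 fold change was -0.56 ± 0.08 with TGF-β1 (adjusted p = 1.3e-05) and 1.33 ± 0.08 with acetate (adjusted p = 5.8e-10).

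The epimerases that convert chondroitin to dermatan sulfate split. DSE averaged 162 ± 3.34 CPM in TGF-β1 + acetate, 212 ± 1.71 CPM in TGF-β1 and 50.4 ± 1.86 CPM in control libraries, a 4.21-fold rise with TGF-β1 (adjusted p = 2.6e-17) and a fall of -0.37 ± 0.03 with acetate (adjusted p = 4.9e-08). DSEL, the second epimerase, had 7.10, 6.8, 7.33 and 6.37 CPM in TGF-β1 + acetate libraries, 2.49, 2.12, 2.39 and 2.44 CPM in TGF-β1 libraries and 1.82, 2.02, 1.69 and 1.90 CPM in control libraries. Acetate libraries were far above both others, with a log2 fold change of 1.55 ± 0.09 (adjusted p = 8.7e-10). The rise of DSEL with TGF-β1, 0.35 ± 0.12, was lost with library totals and without library S3 (adjusted p = 0.015; 0.063 without S3; range 0.0071 to 0.076). Genes on the opposite strand overlap 36.8% of DSEL's exonic length.

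All 4 heparan chain polymerisation genes tested rose with TGF-β1, as 34.1% of all genes did. EXT1 and EXT2, the subunits of the heparan polymerase, averaged 63.9 ± 1.70 and 176 ± 4.81 CPM in TGF-β1 + acetate, 81.2 ± 1.77 and 149 ± 3.06 CPM in TGF-β1 and 41.2 ± 1.13 and 118 ± 2.12 CPM in control libraries. TGF-β1 raised EXT1 1.98-fold (adjusted p = 2.5e-13) and EXT2 1.27-fold (adjusted p = 7e-08). With acetate, EXT1 was lower by -0.33 ± 0.03 and EXT2 higher by 0.25 ± 0.03, in each case without overlap. EXTL3, which starts heparan chains on the linker, rose 1.57-fold with TGF-β1 (adjusted p = 1.9e-10), and its 0.11 ± 0.04 with acetate was lost under 7 alternatives, among them leaving out S15, S16, S17, S22 or S24 (adjusted p = 0.025, range 3.5e-05 to 0.23). EXTL2, which also acts on the linker, rose 1.89-fold with TGF-β1. EXTL1 had 5 to 26 counts in each library, and its higher level with acetate (0.95 ± 0.35, adjusted p = 0.027) was lost without S15, S16, S24 or S25 and with DESeq2 (range 0.013 to 0.13).

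NDST1, the N-deacetylase and N-sulfotransferase that begins heparan sulfation, had 198, 170.0, 162 and 195 CPM in TGF-β1 + acetate libraries, 314, 315, 281 and 316 CPM in TGF-β1 libraries and 107, 101, 94.1 and 94.4 CPM in control libraries. TGF-β1 libraries were highest and control lowest without overlap, at log2 fold changes of 1.63 ± 0.05 (adjusted p = 2.8e-14) and -0.75 ± 0.06 (adjusted p = 2.7e-08). NDST2 was at 16.4 ± 0.288, 16.6 ± 1.05 and 18.5 ± 0.906 CPM in TGF-β1 + acetate, TGF-β1 and control libraries, and 79.9% of its 75-base stretches also lie in AC022400.6, so its value is uncertain. Its call with TGF-β1 (-0.15 ± 0.06, adjusted p = 0.022) was lost without library S15 and without library S18, with adjusted p up to 0.073. NDST3 had 4 to 8 counts in TGF-β1 + acetate libraries, 5 to 9 in TGF-β1 libraries and 0, 0, 1 and 6 in control libraries. GLCE, the epimerase that turns glucuronic into iduronic acid in heparan, was higher in each step, at 69.6 ± 1.33, 52.5 ± 0.708 and 30.6 ± 1.07 CPM in TGF-β1 + acetate, TGF-β1 and control libraries.

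The heparan O-sulfotransferases gave the widest range of the set, from a log2 fold change of -2.87 to 4.19 with TGF-β1 and from -1.45 to 4.15 with acetate. Of 7, TGF-β1 raised 2 and lowered 4, where 34.1% of all genes rose and 32.8% fell. HS3ST3B1 (chromosome 17, 14301083 to 14349404, plus strand) had 11.9, 10.3, 9.67 and 11.4 CPM in TGF-β1 + acetate libraries, 29.4, 29.8, 29.5 and 30.6 CPM in TGF-β1 libraries and 3.36, 3.04, 2.94 and 2.66 CPM in control libraries. HS3ST3A1 (chromosome 17, 13495689 to 13601927, minus strand), which makes the same kind of 3-O-sulfated unit, had 1.94, 1.53, 1.51 and 2.06 CPM in TGF-β1 + acetate libraries, 2.91, 3.80, 3.30 and 3.68 CPM in TGF-β1 libraries and 0.0615, 0.204, 0.281 and 0.207 CPM in control libraries. In both genes TGF-β1 libraries were highest and control libraries lowest, and no groups overlapped. The log2 fold changes with TGF-β1 were 3.32 ± 0.06 for HS3ST3B1 (adjusted p = 1.1e-16) and 4.19 ± 0.23 for HS3ST3A1 (adjusted p = 6.9e-11), and with acetate -1.45 ± 0.06 (adjusted p = 1.6e-11) and -0.94 ± 0.14 (adjusted p = 1.8e-05). The genes share sequence: 18.6% of the 75-base stretches of HS3ST3A1 and 8.9% of those of HS3ST3B1 lie in the other, so some reads of the more abundant HS3ST3B1 could be counted for HS3ST3A1. The control level of HS3ST3A1 rests on 3, 10, 11 and 11 counts. Those libraries alone would not pass the filter on counts, so its test with TGF-β1 depended on the TGF-β1 libraries.

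HS3ST6 (chromosome 16, 1911463 to 1918440, minus strand) was highest with acetate and lowest with TGF-β1 alone. It had 51, 40, 69 and 50 counts in TGF-β1 + acetate libraries, 2, 1, 7 and 2 counts in TGF-β1 libraries and 25, 24, 12 and 43 counts in control libraries. Their levels were 1.41, 1.04, 1.63 and 1.14 CPM in TGF-β1 + acetate, 0.0489, 0.0286, 0.138 and 0.0487 CPM in TGF-β1 and 0.512, 0.490, 0.307 and 0.810 CPM in control libraries, with no overlap between groups. At most 3 counts were found in each TGF-β1 library but S17. The TGF-β1 libraries alone would not pass the limits on counts, so HS3ST6 entered both comparisons through the other group. Over summed counts, HS3ST6 was 18.3-fold higher with acetate than with TGF-β1 alone (exact 95% counting interval 10.2 to 35.9) and 7.64-fold lower in TGF-β1 than in control cells (4.19 to 15.3). The fitted log2 fold changes were 4.15 ± 0.35 with acetate (adjusted p = 4.1e-08) and -2.87 ± 0.45 with TGF-β1 (adjusted p = 2.7e-05), and they became 4.82 and -3.56 without library S17.

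The remaining O-sulfotransferases fell with TGF-β1, apart from HS6ST2. HS3ST1, which completes the antithrombin-binding site of heparin, averaged 1.28 ± 0.163 CPM in TGF-β1 + acetate, 0.588 ± 0.118 CPM in TGF-β1 and 2.10 ± 0.442 CPM in control libraries, a 3.59-fold fall with TGF-β1 (adjusted p = 4.4e-07) and a 2.21-fold higher level with acetate (adjusted p = 0.00011). HS2ST1, the 2-O enzyme, fell by -0.51 ± 0.04 with TGF-β1 and was higher by 0.37 ± 0.04 with acetate. HS6ST1, a 6-O enzyme, fell by -0.47 ± 0.06 and did not pass with acetate (-0.03 ± 0.07, adjusted p = 0.71), and 12.7% of its 75-base stretches lie in the pseudogene HS6ST1P1. HS6ST2 stayed near or below 1 CPM, overlapped between all groups, and its acetate call (adjusted p = 0.038) was lost under 6 alternatives, among them leaving out S16, S17, S18, S22 or S25, with adjusted p up to 0.17. Its difference with TGF-β1 (-0.52 ± 0.25, adjusted p = 0.076) did not pass, but did without S2 or S15 and with library totals (lowest adjusted p 0.024). SULF2, the extracellular enzyme that removes 6-O-sulfate from heparan chains, had 139.6, 126, 139 and 127 CPM in TGF-β1 + acetate libraries, 193, 199.6, 201 and 196 CPM in TGF-β1 libraries and 48.0, 48.3, 43.4 and 45.4 CPM in control libraries. The 3 groups were apart, with a 4.28-fold rise with TGF-β1 (adjusted p = 8.6e-17) and a log2 fold change of -0.56 ± 0.04 with acetate (adjusted p = 6.3e-09).

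**Figure D3:**
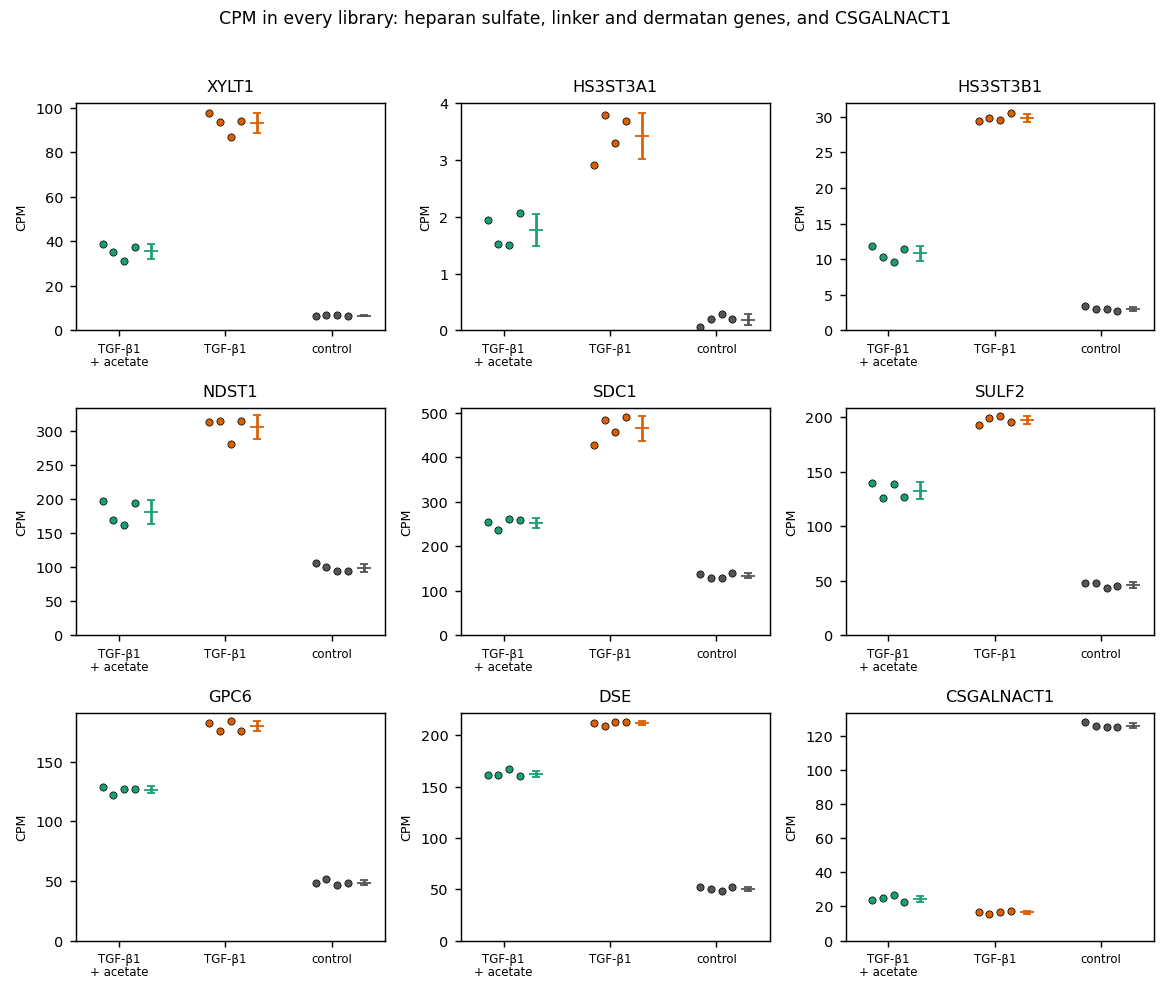
CPM of 9 members in every library (points), with the mean and SD of each group of 4 beside them; groups run from TGF-β1 + acetate to TGF-β1 to control and every axis starts at 0. In 8 panels the TGF-β1 libraries are highest and the acetate libraries lie between them and control; in CSGALNACT1 the control libraries are highest, at 125 to 128 CPM.

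Of the 3 hyaluronan synthases, HAS1 and HAS2 rose and HAS3 fell with TGF-β1, where 34.1% of all genes rose and 32.8% fell, and none passed between acetate and TGF-β1. HAS2, the main synthase in many mesenchymal cells, averaged 40.4 ± 1.19 CPM in TGF-β1 + acetate, 43.2 ± 2.56 CPM in TGF-β1 and 10.3 ± 0.810 CPM in control libraries. Its rise with TGF-β1 was 4.21-fold (adjusted p = 1.3e-14), and its acetate difference was -0.09 ± 0.04 (adjusted p = 0.11), with 0.05 under library totals and a call without library S15 (-0.14, adjusted p = 0.012). HAS1 was low, at 1.08 ± 0.0943, 0.934 ± 0.0888 and 0.322 ± 0.0319 CPM in TGF-β1 + acetate, TGF-β1 and control libraries, and rose 2.89-fold with TGF-β1 (adjusted p = 6.8e-06). HAS3 fell with TGF-β1 by -0.43 ± 0.05 (adjusted p = 1.7e-06). Its acetate difference of 0.10 ± 0.05 did not pass (adjusted p = 0.11), but did with library totals (0.23, adjusted p = 0.0014) and when genes were kept at 1 CPM in 4 libraries (range over the alternatives 0.0014 to 0.34). Per kilobase, HAS2 held 9.64 CPM in TGF-β1 + acetate, 10.3 CPM in TGF-β1 and 2.47 CPM in control cells, and HAS3 2.82, 2.65 and 3.60 CPM, so HAS3 was the highest of the 3 in control cells and HAS2 in treated cells.

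The sulfotransferases that add 6-O-sulfate to keratan sulfate and to N-acetylglucosamine rose with TGF-β1 in 3 of 3 tested and were higher again with acetate in 3 of 4, where 34.1% and 33.3% of all genes were higher. CHST1, which sulfates the galactose of keratan, lies at chromosome 11, 45648877 to 45665622, minus strand. It had 13, 11.8, 14 and 12.1 CPM in TGF-β1 + acetate libraries, 2.89, 2.63, 2.29 and 2.70 CPM in TGF-β1 libraries and 0.389, 0.326, 0.204 and 0.395 CPM in control libraries. The groups did not overlap, with log2 fold changes of 2.96 ± 0.19 for TGF-β1 (adjusted p = 4.3e-10) and 2.29 ± 0.09 for acetate (adjusted p = 8.3e-12). TGF-β1 + acetate and control cells differed 37.6-fold, over control counts of 19, 16, 8 and 21. LUM, the keratan sulfate core described above, gave the same figure over control counts of 17, 23, 17 and 20. A link between the 2 genes was not tested.

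CHST6, the N-acetylglucosamine 6-O-sulfotransferase that corneal keratan sulfate depends on, had 11.6, 10.1, 11.5 and 10.3 CPM in TGF-β1 + acetate libraries, 1.69, 2.46, 2.21 and 1.63 CPM in TGF-β1 libraries and 1.11, 0.836, 0.895 and 0.753 CPM in control libraries. Acetate libraries stood well above the rest, at a log2 fold change of 2.46 ± 0.11 over TGF-β1 (adjusted p = 4.6e-11), and TGF-β1 libraries stood above control by 1.16 ± 0.18 (adjusted p = 2.5e-05). CHST2, which acts on N-acetylglucosamine of several glycans, averaged 3.72 ± 0.145 CPM in TGF-β1 + acetate, 1.51 ± 0.227 CPM in TGF-β1 and 0.475 ± 0.102 CPM in control libraries, rising 3.13-fold with TGF-β1 and 2.49-fold with acetate (adjusted p = 1.4e-06 and 1.5e-07). CHST5 had 5 to 17 counts in each library, shares 56.9% of its 75-base stretches with AC009163.2, and did not pass with acetate (adjusted p = 0.10), although it did without S23 (0.018).

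**Figure D4:**
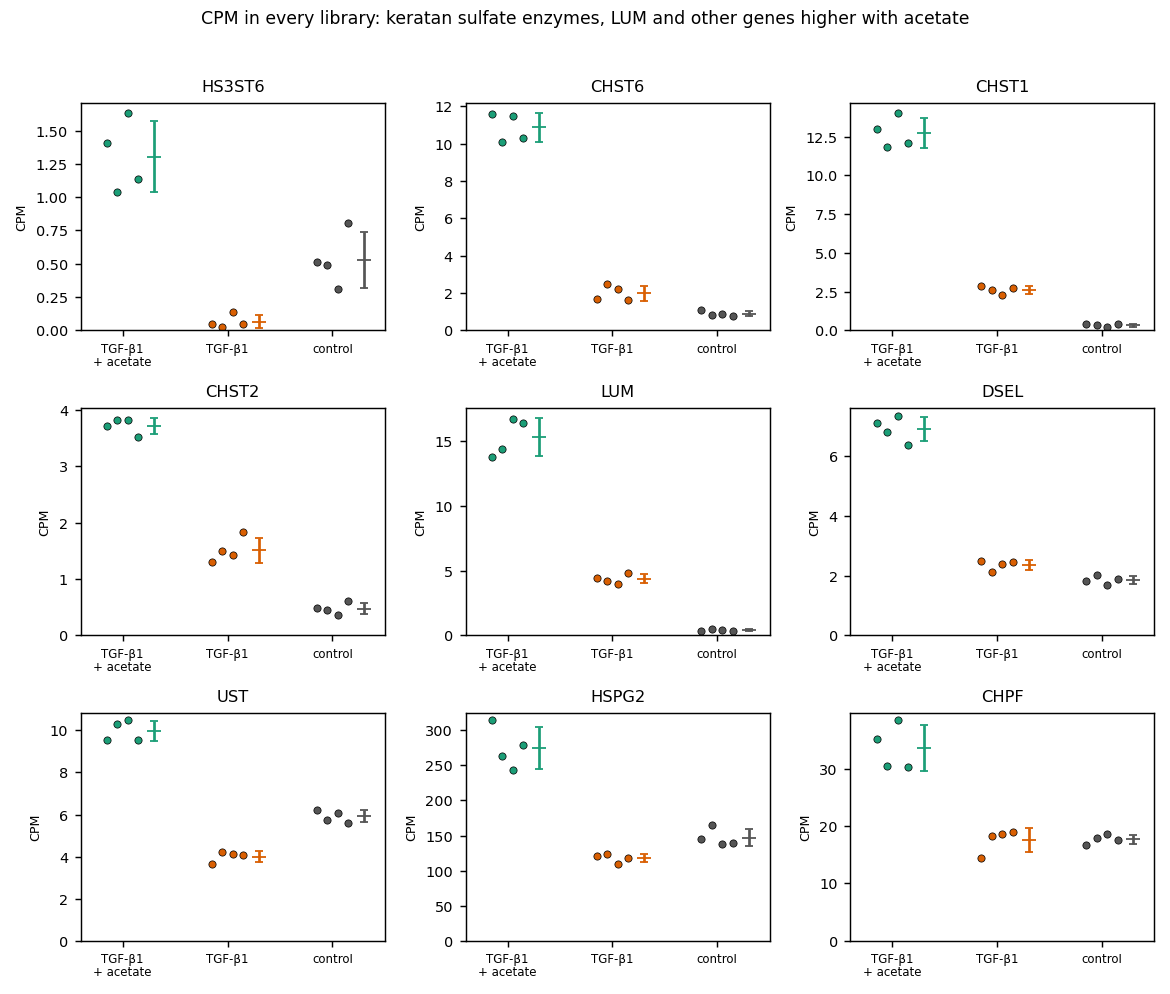
CPM of 9 members in every library (points), with the mean and SD of each group of 4 beside them; groups run from TGF-β1 + acetate to TGF-β1 to control and every axis starts at 0. The acetate libraries are highest in all 9 panels; the TGF-β1 libraries are lowest in HS3ST6, UST and HSPG2 and overlap control in CHPF.

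Both HNK-1 genes fell with acetate, where 30.4% of all genes were lower. CHST10, the HNK-1 sulfotransferase, averaged 11.2 ± 0.667 CPM in TGF-β1 + acetate, 21.9 ± 0.454 CPM in TGF-β1 and 17.2 ± 1.03 CPM in control libraries, a rise of 0.36 ± 0.05 with TGF-β1 and a fall of -0.95 ± 0.05 with acetate (adjusted p = 4.8e-10). B3GAT2 was lower with acetate by -0.23 ± 0.05, a call lost with library totals (adjusted p = 0.10), and exons of SMAP1 on the opposite strand overlap 34.5% of it.

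Other genes of the pathway came from a list of 75 that holds no member, of which 63 matched a row. TGF-β1 raised 28 and lowered 24 of 60 tested, with a median log2 fold change of 0.20, and acetate gave 32 higher and 13 lower of 62 with a median of 0.15. Among all genes tested the shares were 34.1% higher and 32.8% lower with TGF-β1, and 33.3% and 30.4% with acetate. TNFAIP6, a hyaluronan-binding protein, averaged 9.48 ± 1.01 CPM in TGF-β1 + acetate, 25.4 ± 0.819 CPM in TGF-β1 and 0.905 ± 0.198 CPM in control libraries, and rose 28.4-fold with TGF-β1 (adjusted p = 1.2e-16). SPOCK1, a testican core, averaged 227 ± 16.7, 277 ± 10.1 and 17.4 ± 1.19 CPM in those groups and rose 15.9-fold. HAPLN3, a link protein, rose 7.45-fold with TGF-β1, and SPOCK3, another testican, 6.40-fold.

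With acetate, the largest changes among genes of that list at 1 CPM or more were in TGFBR3, HYAL1, ACAN and BCAN. Below that level, HAPLN2, a link protein with no row in the table with control cells, had 15, 19, 16 and 14 counts in TGF-β1 + acetate libraries and 3, 0, 1 and 4 in TGF-β1 libraries, a log2 fold change of 3.0 ± 0.48 (adjusted p = 5.1e-05). HAPLN2 passed the limits on counts only through its TGF-β1 + acetate libraries, so a higher level there was a condition of its being tested. TGFBR3, or betaglycan, a TGF-β co-receptor that carries heparan and chondroitin sulfate, averaged 12.7 ± 0.914 CPM in TGF-β1 + acetate, 2.38 ± 0.293 CPM in TGF-β1 and 12.9 ± 0.689 CPM in control libraries. TGF-β1 lowered it 5.42-fold (adjusted p = 2.2e-13), acetate gave 5.39-fold more than TGF-β1 alone (adjusted p = 6.4e-12), and acetate and control libraries overlapped (adjusted p = 0.78). HYAL1, a hyaluronidase, was 5.11-fold higher with acetate than with TGF-β1 alone, and BCAN, a lectican core, 3.56-fold (adjusted p = 8.5e-09 and 6.7e-08). ACAN, or aggrecan, was 4.5-fold higher (adjusted p = 2.1e-05), at 35 to 73 counts in TGF-β1 + acetate libraries, 7 to 16 in TGF-β1 libraries and 0, 1, 0 and 2 in control libraries. It also needed its TGF-β1 + acetate libraries to pass the filter on counts.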

How the data were processed

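The deposited files are 2 tables of gene counts, as the authors' raw counts per gene for 8 libraries each, with the authors' log2 fold change, p-value and q-value for their own comparison. Those fold changes had the sign found here for 55 of 55 and 57 of 57 members tested in the authors' deposited tables. Bases were called with bcl2fastq and reads aligned with HISAT2 to hg38, and limma was used, per the submitters' processing notes; neither versions nor the counter, its strand setting or the annotation are given in the sources used here. The libraries were stranded, depleted of ribosomal RNA and read as 2 ends of 75 bases, per the labels' protocols. A set of 32 further value columns was not used.

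No label names the count columns. One set of columns is the same in both tables for all 23771 shared genes and was taken as TGF-β1, and the others as control and acetate from the table names. Were a table misnamed, all 3 comparisons would change. No pair of libraries within a group agreed within counting noise (chi-square per degree of freedom 3.71 to 16.3).

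With edgeR 4.0.16 in R 4.3.3, genes passed filterByExpr at a minimum count of 10 and a minimum total of 15, and TMM factors set the scale. The quasi-likelihood test (glmQLFit, then glmQLFTest) was two-sided, and calls were made at a Benjamini-Hochberg adjusted p below 0.05, adjusted over all genes of the fit. TGF-β1 against control and acetate against TGF-β1 were fitted within the table that holds both; acetate against control, and all CPM levels, came from a joint fit of 12 libraries. The standard error is the log2 fold change divided by the root of the F statistic, an approximation. The fits were tested on simulated data. Lengths, overlaps and shared 75-base stretches came from GENCODE 29, which matched 99.1% of 25433 identifiers. Alternatives used DESeq2 1.42.0, limma 3.58.1, other scalings, filters, the joint fit, and each library left out.

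Members, role classes, the list of 75 pathway genes and the tests were chosen with earlier results of these data known. Named members reached 1 CPM in a group and a 2-fold change at the threshold in either of the first 2 comparisons. Values in every library are given for the 8 largest of each, and also for SDC1, HSPG2, NDST1 and DCN, added after their values were seen. Intervals on counts cover counting error only.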

Additional observations from a re-analysis of the deposited data

Results flagged for a closer look

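Groups of 4 libraries were examined for a single library apart from the others in the 27 named members, 81 groups in all, of which chance would mark about 1 in 20. By Dixon's test at the 95% level, 1 library lay far from the others in 2 groups. DSE stood at 167 CPM in TGF-β1 + acetate library S24, where the other 3 libraries lay at 160.2 to 161 CPM. NDST1 stood at 281 CPM in TGF-β1 library S17, where the other 3 lay at 314 to 316 CPM. In both genes the groups did not overlap with that library included.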

How the results depend on the processing

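No paired analysis was possible because the columns carry no replicate numbers, so the fit with a replicate block was not run. Over the other alternatives the number of members called was 45 to 51 for TGF-β1 against control (34 to 39 higher), 39 to 46 for acetate against TGF-β1 (22 to 32 higher) and 49 to 54 for acetate against control (39 to 44 higher). Leaving out each library gave 48 to 50, 40 to 44 and 53 to 54. Of 1291 values of named members under an alternative, 1273 kept their direction and their side of the threshold, 11 lost a call, 5 gained one and 2 turned direction. Those 2 were CHST7 at 0.04 and HAS2 at 0.05 for acetate against TGF-β1 with library totals, neither called there; the reported values were -0.09 for both, also uncalled. With library totals the median log2 fold change of all genes was 0.16 for acetate against TGF-β1 and -0.09 for TGF-β1 against control. The cause of the changed calls was not tested. Fewer than 10 counts in at least 1 library limit 9 members: SDC2, DCN, CHSY3, EXTL1, NDST3, HS3ST3A1, HS3ST6, CHST1 and CHST5. Between TGF-β1 and control, SDC2, DCN, CHSY3, HS3ST3A1 and CHST1 needed TGF-β1 libraries to pass the filter on counts, and HS3ST6 needed control libraries. Between acetate and TGF-β1, the calls of EXTL1 and HS3ST6 needed TGF-β1 + acetate libraries in that way.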

Other observations

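Of 16 genes tested that supply sugar nucleotides and sulfate for these chains, 6 were higher and 10 lower with TGF-β1, where 34.1% and 32.8% of all genes were. The 3 genes named here were chosen after their values were seen. UGDH, which makes the UDP-glucuronic acid that heparan, chondroitin and hyaluronan chains need, averaged 393 ± 4.76 CPM in TGF-β1 + acetate, 268 ± 2.09 CPM in TGF-β1 and 566 ± 27.8 CPM in control libraries (SD, n = 4 each). Its log2 fold change was -1.07 ± 0.04 with TGF-β1 (adjusted p = 1.7e-13) and 0.56 ± 0.03 with acetate (adjusted p = 2.3e-10), by edgeR's quasi-likelihood test.

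Of 19 other proteoglycan cores and receptors tested with acetate, 12 were higher and 2 lower, where 33.3% and 30.4% of all genes were, with a median log2 fold change of 0.52. Of all calls made in that comparison, 52.3% were higher with TMM factors and 67.1% with library totals. SRGN, the intracellular proteoglycan serglycin, averaged 41.7 ± 2.06 CPM in TGF-β1 + acetate, 12.2 ± 0.238 CPM in TGF-β1 and 30.1 ± 1.81 CPM in control libraries, and was 1.78 ± 0.05 higher with acetate on the log2 scale (adjusted p = 1.8e-13). CD44, the main hyaluronan receptor, averaged 636 ± 22.9 CPM in TGF-β1 + acetate, 364 ± 8.85 CPM in TGF-β1 and 399 ± 24.1 CPM in control libraries, 0.81 ± 0.04 higher with acetate (adjusted p = 2.1e-11).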
